A study of Rattus norvegicus with 6 samples.

Results

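The genes described here mark the endothelium of brain vessels and the barrier that it forms. They are Cldn5, Pecam1, Flt1, Kdr, Tek, Slc2a1, Abcb1a and Vwf, chosen by name and not by their values. Among 30367 non-control probes of the array, 7 probes carried the transcript accession of a listed gene, 1 for each of 7 genes, among 15154 genes that could be named. No probe was matched to Vwf here, so Vwf has no value. Hippocampal RNA came from male Wistar rats of 2 months that were orchidectomized (both testes removed) or sham-operated. The groups held 3 animals each, killed 2 weeks after surgery under ketamine and medetomidine. Each RNA sample was read on its own 1-colour Agilent array, in the Cy3 channel. A value here is the log2 of a probe's intensity after subtraction of the 75th percentile of all log2 intensities on that array. A difference is the mean of the orchidectomized arrays minus the mean of the sham arrays.

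Endothelial cells of brain capillaries are sealed to each other by tight junctions, and what passes from blood to brain goes through transporters in their membranes. Vessel growth and rest are set largely by the vascular endothelial growth factor (VEGF) receptors and by the angiopoietin receptor. Capillaries of the choroid plexus differ from those of the hippocampus: they are fenestrated, and there the barrier lies in the epithelium around them. In bulk RNA of hippocampus fewer endothelial cells and less RNA per endothelial cell cannot be told apart.

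The array labelled sham 2 stood apart from the other 5 arrays. Across probes well above background on all arrays its correlation with them was 0.808 to 0.817. Correlations within the other 5 were 0.988 to 0.996, across probes, which are not independent replicates. On the array labelled sham 2, 9 of 10 choroid plexus epithelium genes lay over 1 log2 unit above the median of the other 5. Of all probes 19.4% did so. The list mean was 4.31 there against -5.26 to -3.52 on the others. The exception was Ttr, the brightest of the list, at 5.16 against 2.99 to 5.20. All 6 neuron genes lay over 1 log2 unit below that median (23.8% of all probes). Their mean on that array was -6.02 against 0.48 to 0.75, so the defining neuronal transcripts of hippocampus were low there. Between 23785 and 26173 probes were well above background per array. The 75th percentile of the log2 signal was lowest on orchidectomized 3, at 10.1, and ran from 10.8 to 11.3 on the other 5. The comparison is therefore given with and without the array labelled sham 2.

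Promoter sequences are shown for Cldn5 and Abcb1a, which lay lowest against the other arrays on the one labelled sham 2, and for Kdr, which lay highest there. Each is the stretch of 250 bases before the annotated start in RefSeq, build GRCr8, 5′ to 3′ on the strand of the gene. Capitals mark the GC box GGGCGG, bound by Sp-family factors, and the ETS core CCGGAA, bound by a factor family active in endothelium, on either strand. The stretches are chr11:95718599-95718848 on the minus strand, chr4:26397649-26397898 on the minus strand and chr14:32571813-32572062 on the plus strand.
Cldn5: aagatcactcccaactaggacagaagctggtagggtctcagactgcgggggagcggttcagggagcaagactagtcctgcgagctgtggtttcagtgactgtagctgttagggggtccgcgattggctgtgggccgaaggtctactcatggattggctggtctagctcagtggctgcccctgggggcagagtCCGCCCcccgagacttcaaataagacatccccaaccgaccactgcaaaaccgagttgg
Abcb1a: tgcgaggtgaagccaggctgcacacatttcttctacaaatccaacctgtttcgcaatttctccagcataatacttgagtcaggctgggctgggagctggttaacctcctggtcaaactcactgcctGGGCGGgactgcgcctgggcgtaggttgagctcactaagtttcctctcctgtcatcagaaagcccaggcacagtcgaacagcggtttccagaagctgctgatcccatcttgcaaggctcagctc
Kdr: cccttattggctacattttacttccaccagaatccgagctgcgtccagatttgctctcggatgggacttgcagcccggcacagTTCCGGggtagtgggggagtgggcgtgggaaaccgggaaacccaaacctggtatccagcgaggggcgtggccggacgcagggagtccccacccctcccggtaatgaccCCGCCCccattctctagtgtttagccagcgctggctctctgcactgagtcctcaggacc
RefSeq promoters were matched for 5 of the 8 genes, and GGGCGG occurred in all 5, Flt1 and Slc2a1 included. It occurred in 30.5% of 33469 promoters of the same length. The 5 were also rich in G and C, with 54.0% to 73.2% against a median of 51.2% over all promoters. The ETS core occurred in Kdr alone of the 5, and in 12.6% of all promoters. The GC box lies 58 bases before the start in Cldn5, 124 in Abcb1a and 59 in Kdr.

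The main comparison asked whether endothelial and barrier genes differ in the hippocampus between orchidectomized and sham-operated males. None of the 7 genes differed past the threshold. Over 6 arrays limma called 0 of 24634 probes (0%) and 0 of the 7, with 0.05 as the limit for the Benjamini-Hochberg adjusted p. Without the array labelled sham 2 it called 0 of 25212 (0%), again with 0 of the 7. An unadjusted p under 0.05 was found for 0.731% and 2.71% of all probes in these comparisons and for 0 of the 7 genes in both. All 7 passed the filter on dim probes in both comparisons. With the array labelled sham 2 left out, 3 of 7 were higher and 4 lower in orchidectomized animals, with a median difference of -0.06, against 44.9% of all probes higher and a median of -0.024. Over 6 arrays 3 were higher and 4 lower too, against 48.4% of all probes higher. Groups did not overlap for 2 genes on the higher side (Cldn5, Kdr) and 1 on the lower side (Tek), where the shares of all tested probes were 6.24% and 10.0%. Over 6 arrays the counts were 1 (Cldn5) and 1 (Tek), against 3.26% and 4.74% of all probes. The number of arrays limits the precision, as the intervals given for each gene show.

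**Figure D1:**
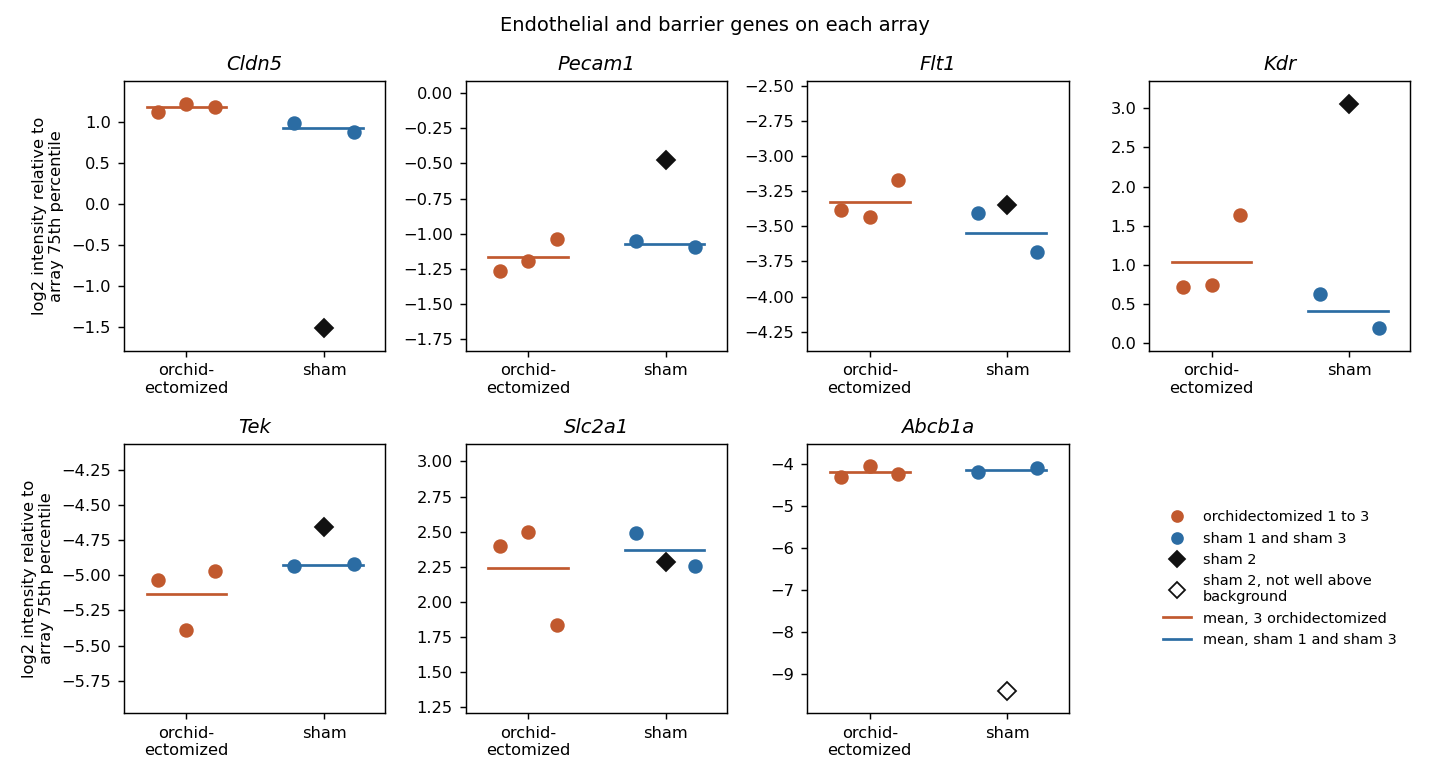
Scaled log2 intensity (75th percentile subtracted) for each of the 7 genes, 1 panel per gene with its own vertical scale and 1 point per array; lines are the means of the 3 orchidectomized arrays and of sham 1 and sham 3. The diamond, sham 2, lies far below the other arrays for Cldn5 (-1.51) and Abcb1a (-9.41, not well above background) and above them for Kdr (3.06).

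Cldn5 encodes claudin-5, the main claudin of brain endothelial tight junctions. Its log2 values were 1.12, 1.22 and 1.18 on orchidectomized 1 to 3 and 0.99 and 0.87 on sham 1 and sham 3, with -1.51 on the array labelled sham 2. The 3 orchidectomized values thus lay above every sham value, by a small margin except for the array labelled sham 2. Without that array the means were 1.18 ± 0.05 (SD, n = 3) and 0.93 ± 0.08 (SD, n = 2), so they differed by 0.25 (standard error 0.13) or 1.19-fold. Its 95% interval ran from -0.064 to 0.56 (limma adjusted p 0.988). Over 6 arrays the difference was 1.06 (SE 0.71; limma adjusted p 0.774); the array labelled sham 2 thus made up most of that value. Between orchidectomized 3 and sham 1, which shared a slide, it was 0.20. Among the arrays of scan day 1, where sham 1 was the lone sham array, it was 0.19. The difference was above 0 under all alternatives run in both comparisons.

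Pecam1 encodes CD31, an adhesion protein at endothelial cell contacts that platelets and leukocytes carry too. Its values were -1.27, -1.19 and -1.04 on the orchidectomized arrays, -1.05 and -1.09 on sham 1 and sham 3, and -0.48 on the array labelled sham 2. The groups overlapped, since orchidectomized 3 lay above both sham 1 and sham 3. Without the array labelled sham 2 the difference was -0.094 with a standard error of 0.13 and an interval from -0.43 to 0.24 (limma adjusted p 0.988). It was -0.29 over 6 arrays (limma adjusted p 0.774) and 0.011 on the shared slide. Of 4 detected platelet genes, 3 lay over 1 log2 unit above the median of the other 5 on the array labelled sham 2, as Pf4 did by 1.73 and Gp9 by 1.90, and their part in the Pecam1 value was not tested.

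Flt1 and Kdr encode the VEGF receptors 1 and 2; Kdr carries most of the growth signal, and Flt1 binds VEGF tightly and limits what reaches Kdr. Flt1 had -3.38, -3.43 and -3.17 on the orchidectomized arrays, -3.41 and -3.68 on sham 1 and sham 3, and -3.35 on the array labelled sham 2. Over the 5 arrays other than the one labelled sham 2 the values spanned 0.51, as did the median probe among all detected. The value on the array labelled sham 2 lay within that span, and the groups overlapped. The Flt1 difference was 0.22 with a standard error of 0.16 without the array labelled sham 2 (interval -0.17 to 0.61, limma adjusted p 0.988), and 0.15 with it (limma adjusted p 0.777).

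Kdr varied most of the 7 among the 5 arrays other than the one labelled sham 2. It had 0.71, 0.74 and 1.64 on the orchidectomized arrays, 0.63 and 0.19 on sham 1 and sham 3, and 3.06 on the array labelled sham 2. Orchidectomized 3 was the high array among the first 3, and the groups did not overlap once the array labelled sham 2 was left out. The means were then 1.03 ± 0.53 (SD, n = 3) and 0.41 ± 0.31 (SD, n = 2), a difference of 0.62 or 1.54-fold with a standard error of 0.33 and an interval from -0.20 to 1.45 (limma adjusted p 0.988). Without orchidectomized 3 as well it was 0.32, and between the slide mates orchidectomized 3 and sham 1 it was 1.01. Over 6 arrays the difference was -0.26 (SE 0.81; limma adjusted p 0.898), so the sign rested on the array labelled sham 2. Before scaling, the processed signal of the Kdr probe on orchidectomized 3 was 3492, between the 2925 and 3582 of orchidectomized 1 and 2. Relative to Pecam1 on the same array, which scaling does not touch, Kdr was also highest on orchidectomized 3, with 2.68 against 1.98 and 1.93 on orchidectomized 1 and 2 and 1.68 and 1.28 on sham 1 and sham 3. The part of scaling in the Kdr value was not tested.

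Tek encodes Tie2, the receptor for angiopoietins, which keep endothelium quiescent or loosen it. It had -5.03, -5.39 and -4.97 on the orchidectomized arrays and -4.93, -4.66 and -4.92 on sham 1 to 3. All sham values lay above all orchidectomized values, sham 1 and sham 3 by under 0.1 over orchidectomized 3. The difference was -0.20 with a standard error of 0.17 without the array labelled sham 2 (interval -0.62 to 0.22, limma adjusted p 0.988) and -0.29 over 6 arrays (limma adjusted p 0.774). The probe was dim, with processed signals of 35.8 to 85.0, and with normexp background correction its difference turned to 0.14 and 0.065.

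Slc2a1 encodes GLUT1, which carries glucose across the barrier; astrocytes, choroid plexus epithelium and red cells make it as well. Its values were 2.40, 2.50 and 1.83 on the orchidectomized arrays and 2.49, 2.28 and 2.26 on sham 1 to 3. Orchidectomized 3 was the low array, and the sham arrays lay between it and orchidectomized 2. The probe was spotted 10 times per array, and the SD between its spots was 0.026 to 0.049 log2 units. Between the 5 arrays other than the one labelled sham 2, which are separate animals of both groups, the SD was 0.27. The group difference without the array labelled sham 2 was -0.13 with a standard error of 0.24 (interval -0.71 to 0.45, limma adjusted p 0.988), and it turned to 0.075 when orchidectomized 3 was left out too. Between the slide mates it was -0.65, within scan day 1 it was -0.24, and it was -0.099 over 6 arrays (limma adjusted p 0.867).

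Abcb1a encodes P-glycoprotein, the efflux pump that keeps many drugs out of the brain. It had -4.30, -4.05 and -4.23 on the orchidectomized arrays and -4.18 and -4.09 on sham 1 and sham 3, all within 0.25 log2 units. On the array labelled sham 2 it had -9.41 and was not well above background, while it was so on the other 5. Without that array the difference was -0.060 with a standard error of 0.14, with an interval from -0.40 to 0.28 (limma adjusted p 0.988). With it the difference was 1.70 (SE 1.49; limma adjusted p 0.774), which rests on 2 of 3 sham arrays with a measured signal. Abcb1b is a close paralog, and whether its transcript binds the Abcb1a probe was not tested.

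**Figure D2:**
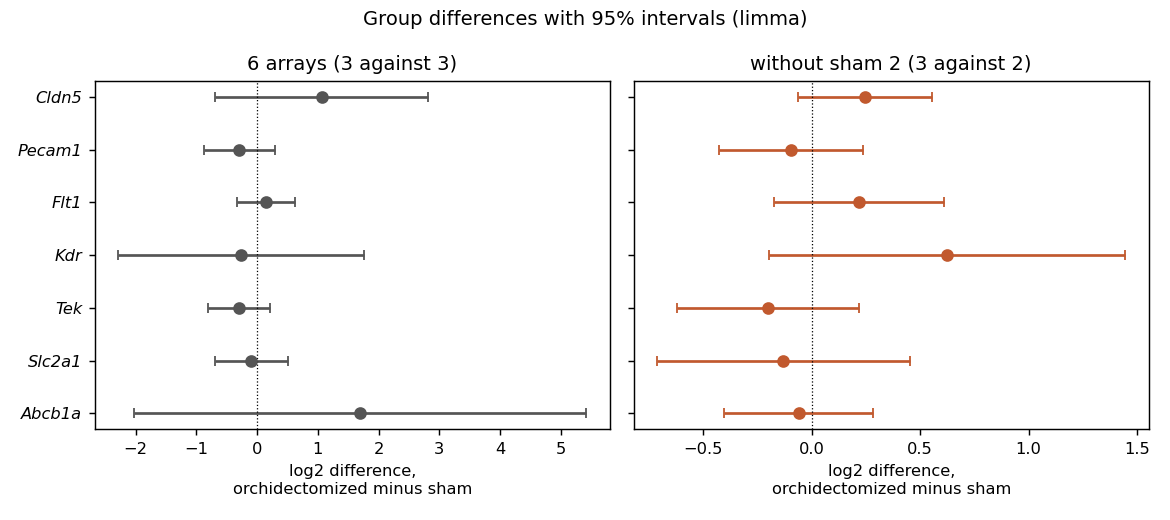
Log2 difference between orchidectomized and sham arrays for each gene, with 95% intervals from limma, over 6 arrays (left) and without sham 2 (right); the horizontal scales differ. All 14 intervals include 0, and those of Cldn5, Kdr and Abcb1a are far wider with sham 2 in the fit.

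The other vascular genes were taken from 10 lists covering junctions, receptors, ligands, transporters, transcription factors, Wnt signals, fenestrated endothelium, claudins, pericytes and smooth muscle. Of 91 genes, 84 had a probe and 82 were tested in each comparison. Without the array labelled sham 2, 43 were higher and 39 lower in orchidectomized animals with a median of 0.028, and 0 were called (limma adjusted p under 0.05). Over 6 arrays 42 were higher and 40 lower with a median of 0.069, again with 0 called. The values in the next sentences are without the array labelled sham 2 unless 6 arrays are named. An unadjusted p under 0.05 was found for 4 of the 82, namely Eng, Angpt2, Cldn11 and Cldn2, with 2.71% of all probes as background. The endothelial receptor list had 8 of 10 genes higher with a median of 0.13, and 6 of 10 with 0.10 over 6 arrays. In it Eng, an endothelial co-receptor of the TGF-beta family, had -2.77, -2.76 and -2.61 on the orchidectomized arrays and -3.25 and -3.19 on sham 1 and sham 3. Its difference was 0.50 (limma adjusted p 0.988) and 0.082 over 6 arrays (limma adjusted p 0.935), and its value on the array labelled sham 2 was -1.95, above every other array. Adgrl4, an endothelial adhesion receptor, differed by 0.22 (limma adjusted p 0.988).

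Among 9 vascular ligands 4 were higher and 5 lower, with a median of -0.14, and over 6 arrays 3 and 6, with -0.30. Angpt2, the angiopoietin that mostly opposes Tie2 signalling, differed by -0.38, and Vegfa, the main VEGF ligand, by 0.30 at its brightest probe (both limma adjusted p 0.988). The 4 Vegfa probes differed by 0.23 to 0.52, but over 6 arrays by -0.33 to 0.067, and 3 of the 4 turned sign. Of 13 barrier transporters 8 were higher and 5 lower (median 0.069; 0.17 over 6 arrays, with the same counts), with Slco2b1, an organic anion carrier, at 0.28 and the transferrin receptor gene Tfrc at -0.25. Junction and adhesion genes split into 5 higher and 5 lower, and over 6 arrays into 3 and 7. Esam, an adhesion protein of endothelial junctions, differed by 0.29 and the junction scaffold gene Tjp1 by -0.27. Of 11 endothelial transcription factors 7 were higher (median 0.049), and 8 over 6 arrays (0.27), with Lef1, a mediator of Wnt signals, at 0.19 and Klf4 at 0.20. The 6 Wnt signalling genes split 3 and 3 with a median of 0.018, and 4 and 2 with 0.71 over 6 arrays, with the ligand gene Wnt7b at 0.58 and Tspan12, a co-factor of the Norrin receptor, at -0.27 without the array labelled sham 2. Over 6 arrays Tfrc, Tjp1 and Tspan12 turned to 0.63, 0.073 and 0.16.

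No gene of mural cells was called (limma). The 10 pericyte genes split 5 and 5 (median 0.012), and 6 and 4 over 6 arrays (0.21), with Higd1b at 0.33 and the potassium channel gene Kcnj8 at 0.32. Of 4 tested smooth muscle genes 1 was higher, and 0 over 6 arrays, with Acta2 at -0.13 and Tagln at -0.12. Among 6 other claudins 4 were lower: Cldn11, the claudin of myelin, differed by -0.60, while Cldn2, that of choroid plexus epithelium, differed by 1.15 (both limma adjusted p 0.988); Cldn2 is also on the choroid plexus list. Over 6 arrays these turned to 1.04 and -2.94, and the claudin median went from -0.26 to -1.07. Of 3 tested genes of fenestrated endothelium 3 were lower, with Plvap at -0.26 and Nrp2 at -0.30, but over 6 arrays 2 of 3 were higher, with Plvap at -1.74 and Nrp2 at 0.16. Beside these values, oligodendrocyte genes had a median of -0.46 with 5 of 6 lower, choroid plexus epithelium genes a median of 0.63 with 9 of 9 higher, and blood cell genes a median of -0.30 with 4 of 6 lower. The oligodendrocyte exception was Mbp, at 0.35 by its brightest probe and -0.036 by the other. On these 5 arrays its brightest probe ran in the reverse order of the 75th percentiles, and the part of scaling was not tested. Over 6 arrays oligodendrocyte genes had a median of 1.15 with 6 of 6 higher, and choroid plexus epithelium genes -2.70 with 8 of 9 lower. The mean of the blood cell list was -2.55 to -1.90 on the orchidectomized arrays and -1.44, -1.90 and -2.50 on sham 1 to 3. This mean and the counts take Hbb by its brightest probe. Its values ran in the reverse order of the arrays' 75th percentiles, from 5.73 on orchidectomized 3 to 4.56 on sham 3. The part of scaling in them was not tested. The brightest probe differed by 0.36 without the array labelled sham 2, and the other Hbb probe by -0.98. An unadjusted limma p under 0.05 was found there for 2 of 6 blood cell genes, against 2.71% of all probes. They were Alas2 at -1.06 and Slc4a1 at -0.84 (both limma adjusted p 0.988). The part of these cell types in the vascular values was not tested.

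**Figure D3:**
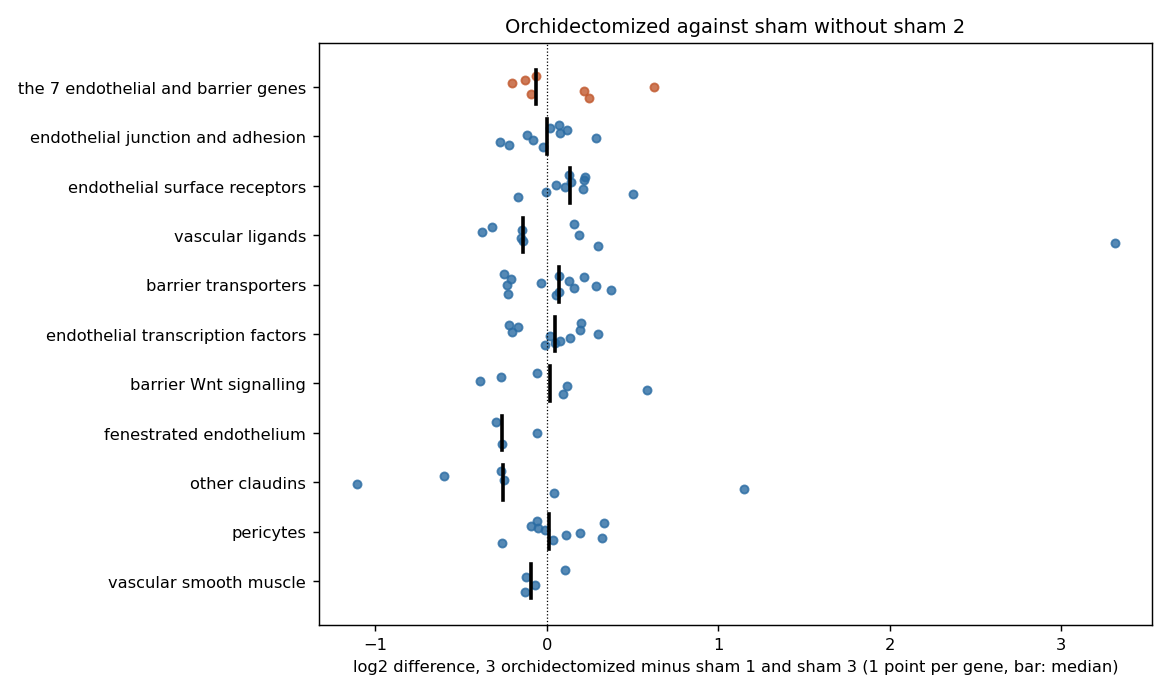
Log2 difference, 3 orchidectomized arrays minus sham 1 and sham 3, with 1 point per tested gene and a bar at the median of each list. The points run from -1.11 (Cldn3) to 3.31 (Vegfb), and the medians of all lists lie between -0.26 and 0.13.

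Set against the other 5 arrays, the array labelled sham 2 separated these genes from each other. Cldn5 had -2.63 as its log2 deviation from the median of these 5 (6.20-fold lower), and Abcb1a was 10.2-fold dimmer than their mean. Here the lowest value well above background on that array, -7.52, stands in for its own lower value. A probe not well above background can lie above this stand-in, so the fold is no firm lower limit. With normexp the Abcb1a deviation from the median was -1.33. Kdr lay 2.35 above the median (5.09-fold), Pecam1 0.62 and Tek 0.31, all 3 above every other array. Flt1 and Slc2a1 lay within the range of the others, with deviations of 0.062 and -0.12 whose signs turned under other background correction or scaling. Of all 27367 probes well above background on any array, 38.3% lay above and 38.6% below all other 5 on that array, and the 7 genes had 3 and 2. Over 1 log2 unit from the median lay 1 of the 7 above (19.4% of all probes) and 2 below (23.8%). These are values of 1 array and carry no test.

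A ratio of genes on the same array does not depend on scaling, and Pecam1 was taken as the reference after its values were seen. Relative to Pecam1, Cldn5 had 1.97 to 2.41 on the other 5 arrays and -1.03 on the array labelled sham 2. Abcb1a had -3.19 to -2.86 on them and -8.93 there, a value not well above background. Kdr had 1.28 to 2.68 on them and 3.54 there. Tek had -4.20 to -3.77 and -4.18, within the range of the others. Flt1 (-2.87 against -2.59 to -2.11) and Slc2a1 (2.76 against 2.87 to 3.69) lay slightly below their ranges.

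**Figure D4:**
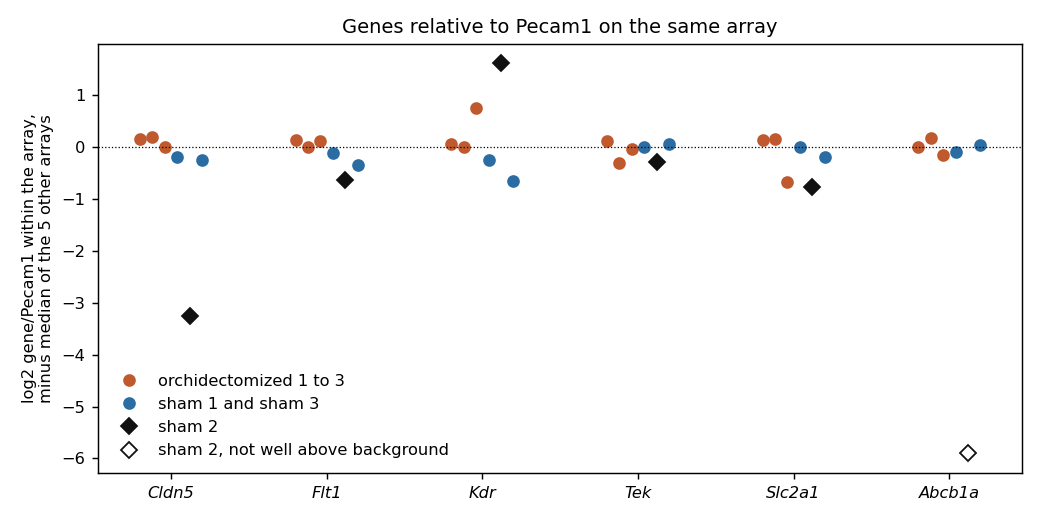
Log2 ratio of each gene to Pecam1 on the same array, minus the median of that ratio over the 5 arrays other than sham 2; 1 point per array. The sham 2 diamonds lie at -3.26 for Cldn5, -5.90 for Abcb1a (open, not well above background) and 1.61 for Kdr, while the one for Tek lies among the other arrays.

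Of 84 detected genes of the vascular lists 38 lay above and 37 below all other 5 on that array, beside shares of 38.3% and 38.6% over all probes, and the median deviation was -0.014. Genes of endothelium at large differed in their deviation. Emcn, an endothelial sialomucin, deviated by 2.50, Eng by 0.82 and Esam by -0.75. Cdh5, which encodes VE-cadherin, had -2.72 on that array against -3.13 to -2.52, and the receptor gene Tie1 -3.52 against -4.09 to -3.66, above the others by a small margin. Barrier transporters had a median deviation of -0.85, with 6 of 13 over 1 log2 unit lower (23.8% of all probes) and 4 of 13 over 1 log2 unit higher (19.4%). Abcb1b had -4.18 against 0.22 to 0.39, the efflux pump gene Abcg2 -4.35 against -1.13 to -0.68, and the amino acid carrier gene Slc38a5 -4.37 against -1.13 to 0.0023. Slc22a8, an organic anion transporter gene also made by choroid plexus epithelium, was 4.39 higher, and Abcc4, Slco1c1 and Slc3a2 were 2.92, 2.07 and 1.28 higher. Wnt signalling genes had a median deviation of -2.03, with 4 of 6 over 1 log2 unit lower (23.8% of all probes). Over 1 log2 unit higher lay 1 of 6 (19.4%), the Norrin receptor gene Fzd4 at 1.88. Ndp, which encodes the ligand Norrin, was 107-fold dimmer there with the same stand-in of -7.52, and Wnt7a deviated by -3.63. Both come largely from glia and neurons, whose lists also lay low, with astrocyte genes at a median of -4.60. The 11 transcription factors had a median deviation of -0.43. Of them 2 lay over 1 log2 unit lower (23.8% of all probes) and 1 over 1 log2 unit higher (19.4%). The 2 lower ones were Lef1, which deviated by -4.61, and Foxq1, which was 10.4-fold dimmer by a value not well above background.

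Of 4 genes of fenestrated endothelium 2 lay above all other arrays (38.3% of all probes) and 2 below (38.6%). The lower ones on the array labelled sham 2 were Nrp2, at -6.50 against -5.69 to -4.64, and Plpp3, at -0.84 against 0.40 to 0.84. Plvap, which encodes the diaphragm protein of fenestrae, had 3.04 on the array labelled sham 2 and -1.82 to -1.34 on the others. Esm1, a gene of growing vessel tips, had 0.95 against -9.55 to -5.80 and was well above background on 3 of 6 arrays. S1pr1, a sphingosine phosphate receptor that astrocytes carry too, had -1.73 against 2.21 to 2.55. Of 9 vascular ligands 8 lay above all other 5 arrays (38.3% of all probes) and 1 below (38.6%), with a median deviation of 0.98. Among them the placental growth factor gene Pgf, a ligand of Flt1, lay 3.35 higher. The junction genes F11r and Marveld2, which epithelia carry as well, lay 3.88 and 3.34 higher, and the epithelial claudins Cldn2 and Cldn3 11.6 and 7.63 higher. Pericyte genes had a median deviation of -0.62. Of 10, 3 lay above all other 5 arrays (38.3% of all probes) and 6 below (38.6%). Over 1 log2 unit lower lay 3 of 10 (23.8% of all probes), among them Vtn at -3.41 and Cspg4 at -1.98. None lay over 1 log2 unit higher, and Pdgfrb lay 0.84 higher. Smooth muscle genes had a median deviation of 0.27, with Myh11 1.64 and Des 0.29 higher. Choroid plexus epithelium genes, with Folr1 7.81 higher, had a median of 9.39, ependymal genes 5.36 and fibroblast genes 1.48. Microglial genes had -1.19 and oligodendrocyte genes -4.47. The part of these cells in the vascular values on that array was not tested.

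**Figure D5:**
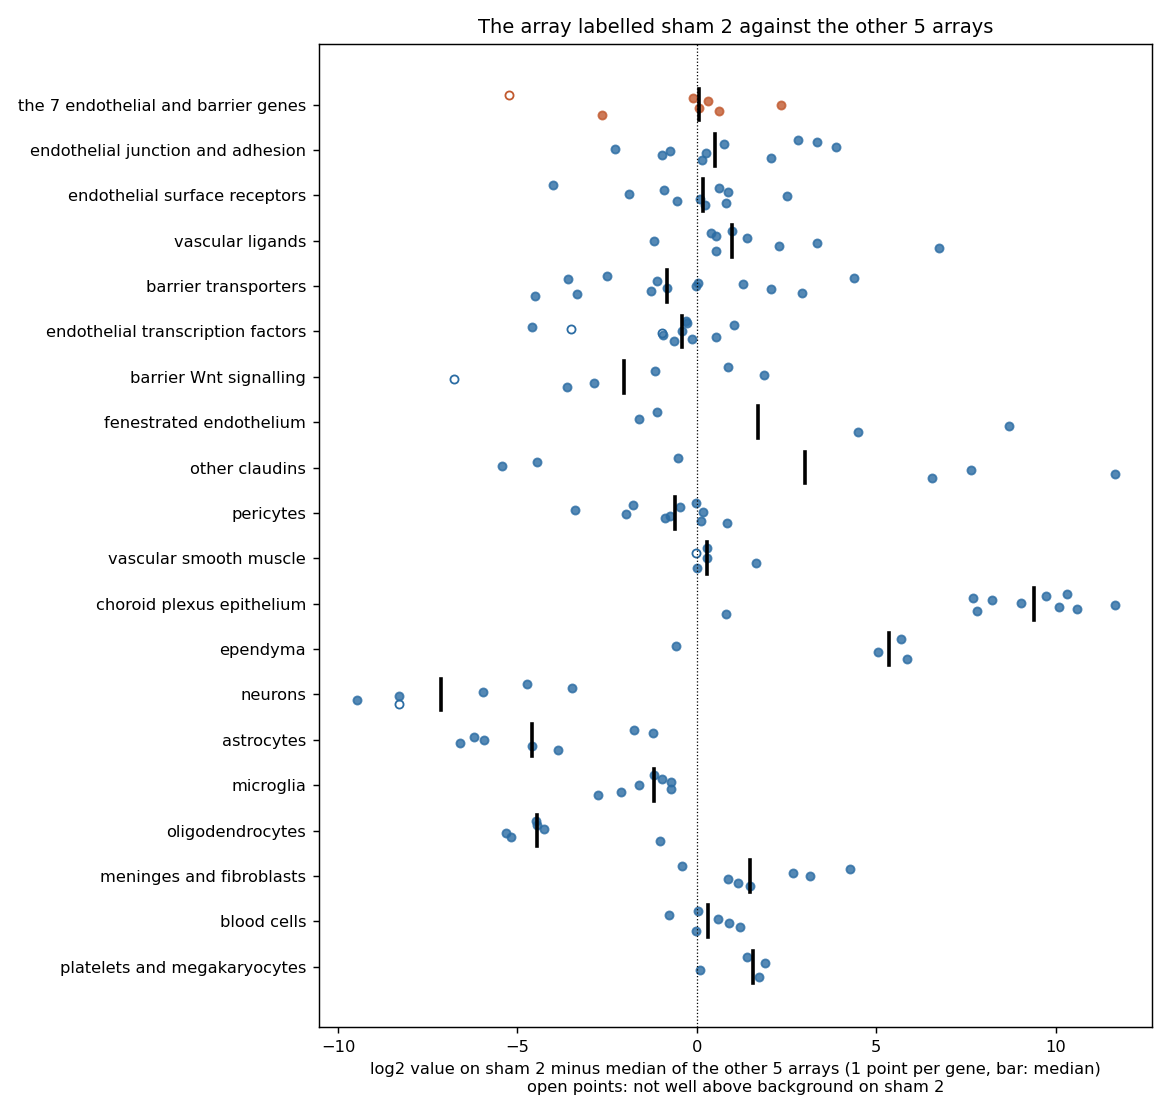
Log2 value on the array labelled sham 2 minus the median of the other 5 arrays, 1 point per gene and a bar at the median of each list; open points were not well above background on sham 2, so their place is not a measured difference. Of the 7 endothelial and barrier genes the measured ones run from -2.63 (Cldn5) to 2.35 (Kdr), with Abcb1a open, choroid plexus epithelium genes have a median of 9.39, and neuron genes lie between -9.48 and -3.49.

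For each gene the most alike profile over the 6 arrays was sought among 11804 named genes well above background on all of them, as the smallest root mean square difference after centring. The array labelled sham 2 enters each profile. For Cldn5 it was Snap91, a synaptic vesicle gene, at 0.048 log2 units, with -3.83 on the array labelled sham 2 and -1.31 to -1.04 on the others. For Abcb1a none is given, since its value on the array labelled sham 2 was not well above background. For Kdr the closest gene, Bmp8a, was farther off at 0.17, with -2.48 against -5.07 to -4.10. For Pecam1 it was the proteasome gene Psmc3 (0.033), for Flt1 Fbxw17 (0.037), for Tek Trim66 (0.048) and for Slc2a1 Adgrf5 (0.047).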

How the data were processed

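RNA amounts of 200 ng per animal were amplified and Cy3-labelled, per the labels' protocols. Per the file headers, Feature Extraction 10.5.1.1 from Agilent produced the spot values, and its processed intensity is background-subtracted. The authors' deposited value table is in log2 and equals log2 processed intensity plus 1 constant per array (-0.32 to 0.72, column medians 7.62 to 8.04); what the constants centre on stays unknown.

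Control and outlier spots were left out, log2 processed signals were averaged per probe, and each array's 75th percentile was subtracted. Probes that every array of at least 1 group showed well above background entered lmFit and eBayes (limma 3.58.1, R 4.3.3; two-sided), a step checked on simulated data. A flag needed 50% of a probe's spots. Names came from transcript accessions matched to RefSeq genes of GRCr8 (18004 of 30367 probes). The arrays' own build differs, so coordinates are given only for the promoter stretches, in GRCr8. A gene with several probes is given by its brightest tested one.

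Orchidectomized 1 and 2 shared a slide, as did orchidectomized 3 with sham 1, and these 4 were scanned on day 1. Sham 2 and sham 3 each had their own slide and were scanned on day 2. The members and all gene lists were chosen with earlier results of these data known. Named genes of vascular lists were up to 2 with the smallest p without sham 2. Added to these were up to 2 farthest from the other arrays on sham 2. Those of cell types were drawn from the brightest 2. Cdh5, Tie1, Abcg2, Slc38a5, Abcc4, Slco1c1, Slc3a2, Pdgfrb, Slc4a1, Fzd4, Plpp3 and Gp1ba were named after their values were seen. Alternatives were normexp (offset 50, on median spot signals), quantile and median scaling, the deposited values, other filters, probe means, array weights, a block by slide, by scan day or by replicate number, and leaving out each array. The scaling alternatives for the values on sham 2 were added after the data were seen.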

Additional observations from a re-analysis of the deposited data

How the results depend on the processing

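With each alternative in turn, 0 of the 7 genes was called in either comparison. The sign turned in 10 values over 6 arrays and in 5 without that array, and the cause of the turns was not tested. Over 6 arrays Tek turned to 0.065 with normexp, and array weights turned Kdr to 0.19. In the fit blocked by slide Pecam1, Kdr and Abcb1a turned to 0.011, 1.01 and -0.049. With scan day as a block Kdr and Abcb1a turned to 0.40 and -0.014. Sham 2 and sham 3 shared no slide or scan day with an orchidectomized array, so both blocks leave them without weight in the difference. The slide block then gives the difference between orchidectomized 3 and sham 1 alone. In the scan day block sham 1 is the only sham array that counts. Leaving out 1 array gave -0.81 to 0.62 for Kdr, -0.060 to 2.60 for Abcb1a and -0.23 to 0.11 for Slc2a1. Kdr and Abcb1a turned without sham 2, and Slc2a1 without orchidectomized 3. Without the array labelled sham 2, normexp turned Tek to 0.14 and Abcb1a to 0.18, array weights turned Slc2a1 to 0.036 and the slide block Pecam1 to 0.011. Leaving out a further array gave -0.26 to 0.075 for Slc2a1. The median of the 7 genes, -0.060 in that comparison, was 0.18 with normexp, 0.036 with array weights and -0.073 to 0.075 with a further array left out. Over all tested probes the median was 0.083 with normexp there, and -0.10 under median scaling over 6 arrays; the values given were not corrected for that shift. The vascular list median over 6 arrays, 0.069, was -0.049 with the slide block, -0.047 with the scan day block and -0.048 to 0.059 with 1 array left out.

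Probes called over 6 arrays numbered 1 with quantile normalization and 13 with array weights, where the weight of sham 2 was 0.028. Without that array they numbered 2 with quantile normalization, 1 with median scaling, 18 with the deposited values and 10 with the scan day block. They ran from 0 to 251 when a further array was left out, 22 without sham 1 and 251 without sham 3, where a lone sham array is assumed to vary like the others. Replicate numbers are not said to pair the animals. Over 6 arrays same-numbered deviations from the group mean correlated at 0.027, -0.023 and -0.018. There 1 of 3 orchidectomized arrays correlated best with the sham array of its own number. The array labelled sham 2 enters the sham mean in these values. Without it the correlations were 0.18 for replicate 1 and -0.060 for replicate 3. With so few arrays they cannot decide whether the animals were paired. The fit with replicate number as a block called 0 probes in both comparisons and turned no sign.

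For the array labelled sham 2, median scaling gave -2.35 for Cldn5, 0.87 for Pecam1 and 0.17 for Slc2a1, which turned. Flt1 had -0.020 with normexp, 0.34 with quantile normalization and 0.33 with median scaling. Tek had 0.091, 0.81 and 0.57, and Abcb1a -1.33, -4.83 and -4.94 with the same 3. Dim probes such as Abcb1a and Tek lie near the background, which limits the size of their differences.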

Other observations

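Orchidectomized 3 was the highest or the lowest of the 5 arrays other than the one labelled sham 2 at 55 of 84 vascular list genes (65.5%) and at 62.2% of 27363 probes detected on any array. The probe of Vegfb, a ligand of Flt1, had -0.088 and -0.15 on orchidectomized 1 and 2 but -7.35 on orchidectomized 3, with -6.48, 1.54 and -5.20 on sham 1 to 3. The claudin gene Cldn3 had -2.53 on sham 1 and -6.70 to -5.14 on the orchidectomized arrays and sham 3.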
